A study of Mus musculus with 48 samples.

Results

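The SOCS genes encode a family of intracellular inhibitors that cytokines induce and that then act back on cytokine receptors. They were followed here in NMM cells, a line of NRAS-mutated mouse melanoma, together with Ptpn2, a tyrosine phosphatase that acts on the same pathway. The members were taken by gene symbol from the deposited table: Socs1, Socs2, Socs3, Socs4, Socs5, Socs6, Socs7, Cish and Ptpn2, 9 of 49671 genes. All 9 were among the 12203 genes with enough counts to be tested. The 48 libraries were polyadenylated RNA from cultured cells in 12 groups, each with 1 library at 2, 6, 12 and 24 h of continuous exposure. The cytokine groups were interferon gamma (IFNγ) at 0.01, 1 and 100 ng/ml, tumour necrosis factor alpha (TNF) at 0.1, 1 and 10 ng/ml, and IFNγ at 100 ng/ml combined with TNF at 10 ng/ml. Further groups had 5000 U/ml of the type I interferon IFNA1 (IFNα1) or TGFβ at 10 ng/ml. Others had lymphotoxin A1 B2 at 2 ng/ml, called lymphotoxin below, or 6000 U/ml of interleukin 2 (IL-2). The reference for all of them was unstimulated NMM cells sampled at the same 4 durations. Every group shares the mutated NRAS genotype and comes from a single cell line, so cells of other lines or of primary melanoma were not sampled.

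Interferon and many interleukin receptors signal through JAK kinases, which phosphorylate STAT transcription factors, and STATs switch on SOCS genes among their targets. SOCS1 and SOCS3 bind and inhibit JAKs directly, while CIS (the product of Cish) and SOCS2 are best known as targets of STAT5 that dampen receptors for growth hormone and related cytokines. All SOCS proteins carry a SOCS box, which recruits a ubiquitin ligase. SOCS4 to SOCS7 are less tied to cytokine induction, and PTPN2 removes phosphate from JAKs and STATs.

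Library totals ran between 5612907 and 9663207 counts, so that 1 count equals between 0.105 and 0.179 CPM, the unit of counts scaled to the effective library size. Counts of Nras and of marker genes of the labelled and of other cell types are given next. Nras counts show neither the lineage nor the mutation. Nras had 1219 to 2183 counts in each library and Mitf, the melanocyte lineage factor, 29 to 97, while the pigment cell genes Mlana and Dct had 0 counts and Tyr, Tyrp1 and Sox10 had 2 counts each over all libraries. Pigment cell genes were thus at or near 0, and the cells are called melanoma here from the submitters' label. On build GRCm38 7 of the genes lie at chr16:10783808-10785536 (Socs1), chr10:95385362-95417180 (Socs2), chr11:117966079-117970047 (Socs3), chr14:47276931-47296098 (Socs4), chr17:87107679-87137583 (Socs5), chr11:97362551-97398542 (Socs7), and chr9:107296026-107302784 (Cish). Of 8 T and NK cell genes, 7 had 0 counts in every library and Ptprc at most 3. The fibroblast genes Dcn (54 to 354 counts) and Pdgfra (25 to 171) were counted in every library, while Col1a1 had at most 11 and Lum at most 2. The endothelial gene Cdh5 (16 to 195) and the macrophage gene Cd68 (11 to 44) were also counted in every library, and the other listed genes of these 2 types had at most 4 counts. Each group thus holds 4 durations with no replicate at any of them, and whether the cultures were separate is not stated in the labels. The test therefore asks whether a stimulus moved a gene beyond the variation of stimulus effects over durations, pooled over all groups. By the index sequences in the column names, the 24 libraries of 2 h and 6 h had 24 different indexes and the 24 libraries of 12 h and 24 h used the same 24 again. Effects are therefore also given within each of these pairs of durations for the results with the largest changes.

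The promoters that could be matched, those of Socs1, Socs3, Cish and Socs4, are shown for the letters they hold around the start of transcription. Among the 9 members they were taken by whether a promoter was matched and not by response. The 9 members themselves were chosen with earlier results of these data known. Socs4 was the only one of the 4 without a call for any stimulus. A RefSeq promoter (build GRCm38.p6, 250 bases before to 50 after the start, 300 bases) was matched for 4 of the 9 genes. Capitals mark TTCNNNGAA, the core to which STAT dimers bind, and pairs of GAAA with any 2 bases between them, a core of the interferon-stimulated response element. Both strands were searched. The Socs1 promoter is chr16:10785487-10785786 on the minus strand, that of Socs3 chr11:117969317-117969616 on the minus strand, that of Cish chr9:107296409-107296708 on the plus strand and that of Socs4 chr14:47276670-47276969 on the plus strand.
Socs1: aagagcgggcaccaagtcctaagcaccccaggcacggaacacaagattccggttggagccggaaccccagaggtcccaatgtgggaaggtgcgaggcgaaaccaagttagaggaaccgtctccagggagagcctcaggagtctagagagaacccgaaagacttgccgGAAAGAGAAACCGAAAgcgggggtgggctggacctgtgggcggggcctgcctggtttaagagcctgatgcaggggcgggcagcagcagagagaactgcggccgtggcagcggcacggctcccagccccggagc
Socs3: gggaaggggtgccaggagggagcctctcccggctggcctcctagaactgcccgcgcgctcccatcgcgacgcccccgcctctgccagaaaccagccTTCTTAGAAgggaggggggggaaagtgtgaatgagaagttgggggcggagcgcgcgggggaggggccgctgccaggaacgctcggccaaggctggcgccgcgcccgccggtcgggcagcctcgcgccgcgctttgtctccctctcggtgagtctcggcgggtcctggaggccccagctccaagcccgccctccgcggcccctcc
Cish: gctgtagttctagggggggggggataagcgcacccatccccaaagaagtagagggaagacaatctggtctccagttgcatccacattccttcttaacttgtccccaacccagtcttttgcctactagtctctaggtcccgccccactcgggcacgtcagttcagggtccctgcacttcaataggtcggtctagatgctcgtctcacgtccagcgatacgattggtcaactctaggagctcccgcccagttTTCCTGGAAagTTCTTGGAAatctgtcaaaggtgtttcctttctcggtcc
Socs4: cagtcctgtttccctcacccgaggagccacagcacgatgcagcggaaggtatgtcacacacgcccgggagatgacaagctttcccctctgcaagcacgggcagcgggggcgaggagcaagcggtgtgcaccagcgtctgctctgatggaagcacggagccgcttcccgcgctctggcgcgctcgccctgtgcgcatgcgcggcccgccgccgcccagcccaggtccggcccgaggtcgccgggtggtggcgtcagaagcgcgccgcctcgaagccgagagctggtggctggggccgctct
The capitals in Socs1 are a pair of overlapping matches to the GAAA pair, GAAAGAGAAA and GAAACCGAAA, whose first bases lie at -83 and -77 from the start. Socs3 held TTCTTAGAA with its first base at -154, and Cish held TTCCTGGAA at the start itself and TTCTTGGAA with its first base at 11. Socs4 held neither motif, and the consensus site of NF-κB had no match in these 4 windows. Among 32851 RefSeq promoters of the same length, 8.3% held TTCNNNGAA, 3.44% held the GAAA pair and 4.51% held the NF-κB consensus. These matches describe letters and do not show that a factor bound there.

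Across the 11 stimuli, Socs1 and Socs3 had their largest changes with IFNγ alone or in the combination. Cish, Ptpn2 and Socs5 were called both with IFNγ at 100 ng/ml and with TNF at 10 ng/ml. Socs6 and Socs7 were called with IFNγ and in the combination, Socs6 also with TGFβ, and Socs2 and Socs4 for no stimulus over unstimulated cells. With IFNγ at 100 ng/ml, 7 of 9 members were called, all higher than in unstimulated cells, against a background of 22.1% of all tested genes (edgeR's quasi-likelihood test, Benjamini-Hochberg adjusted p under 0.05). The members' median log2 change was 0.36, against -0.02 over all genes. The combination of IFNγ and TNF also gave 7 of 9 higher, against 42%, with a median of 0.43 against -0.03. IFNγ at 1 ng/ml gave 5 of 9, against 15%, and TNF at 10 ng/ml gave 3 of 9, against 17.1%, all of them higher. IFNα1 gave 1 of 9, against 9.27%, and TGFβ 1 of 9, against 8.28%; both shares are close to the background. All these comparisons share the same 4 unstimulated libraries, so they are not independent of each other. The members were also chosen with earlier results of these data known. An F test over the 11 stimuli together called 8 of 9 members, all except Socs4, against 52.2% of all genes.

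**Figure D1:**
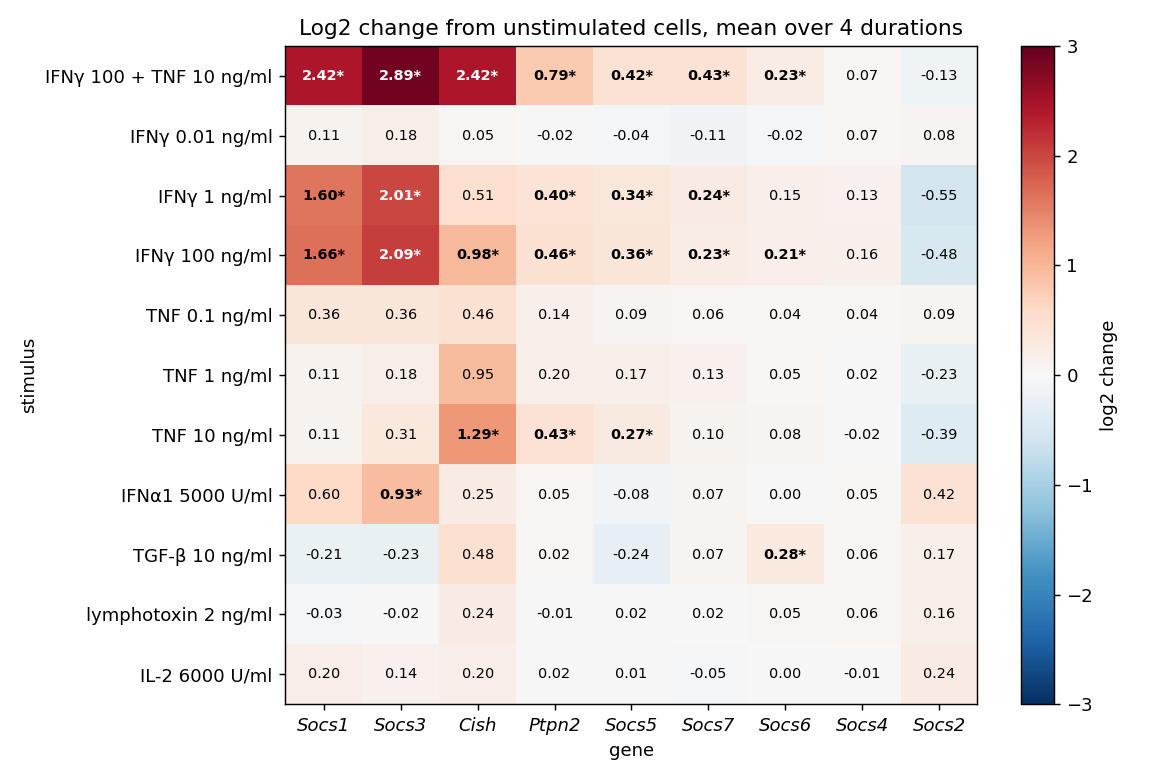
Log2 change of each of the 9 genes (across) in each of the 11 stimuli (down) over unstimulated cells, as colour with the value printed and an asterisk where the adjusted p was under 0.05. Socs1 and Socs3 have their largest values with the combination and with IFNγ at 1 and 100 ng/ml, and Socs4 has no asterisk.

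Socs3 was the most strongly changed member. With IFNγ at 100 ng/ml it had 86.1, 67.9, 54.4 and 61.6 CPM at 2, 6, 12 and 24 h, against 16.6, 15.5, 15.9 and 15.03 CPM in unstimulated cells. The lowest stimulated library lay well above the highest unstimulated one, and the unstimulated values lay close together. The ratio at a single duration was 5.17 at 2 h (95% interval 4.24 to 6.35), 4.37 at 6 h, 3.42 at 12 h and 4.10 at 24 h. These single-duration ratios carry no replicate and no test, and their intervals, from exact binomial limits on the counts, cover counting error only. Over all 4 durations the log2 change was 2.09 ± 0.16 (± approximate SE), higher at 4 of 4 and called, with an adjusted p of 1.92e-12 in edgeR's quasi-likelihood test. Within the 2 h and 6 h libraries the log2 change was 2.25, and within the 12 h and 24 h libraries 1.91, each called. In bulk RNA, more RNA in every cell and a larger share of responding cells cannot be told apart. Summed fibroblast markers (Col1a1, Pdgfra, Dcn and Lum), nearly all from Pdgfra and Dcn, were 14.7 to 22.6 CPM with IFNγ at 100 ng/ml and 23.4 to 36.2 CPM in unstimulated cells. Col1a1 had at most 11 counts and Lum at most 2 in any library, and the part of these markers in the result was not tested.

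Socs1, the other JAK inhibitor, responded to IFNγ from a lower level. It had 32.1, 16.5, 17.6 and 22.3 CPM at 2, 6, 12 and 24 h with IFNγ at 100 ng/ml, against 6.31, 7.03, 7.72 and 6.74 CPM in unstimulated cells. The groups did not overlap, and the 2 h library was the highest of the 4 with IFNγ. The ratio at single durations was 5.08 at 2 h (95% interval 3.68 to 7.16), 2.34 at 6 h, 2.28 at 12 h and 3.32 at 24 h. The log2 change was 1.66 ± 0.27, higher at 4 of 4 and called, with an adjusted p of 2.08e-05 in edgeR's quasi-likelihood test, and was 1.83 on the log2 scale within 2 h and 6 h and 1.48 within 12 h and 24 h. The calls of Socs1 and Socs3 held in every alternative setting for IFNγ at 100 ng/ml, at 1 ng/ml and in the combination.

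**Figure D2:**
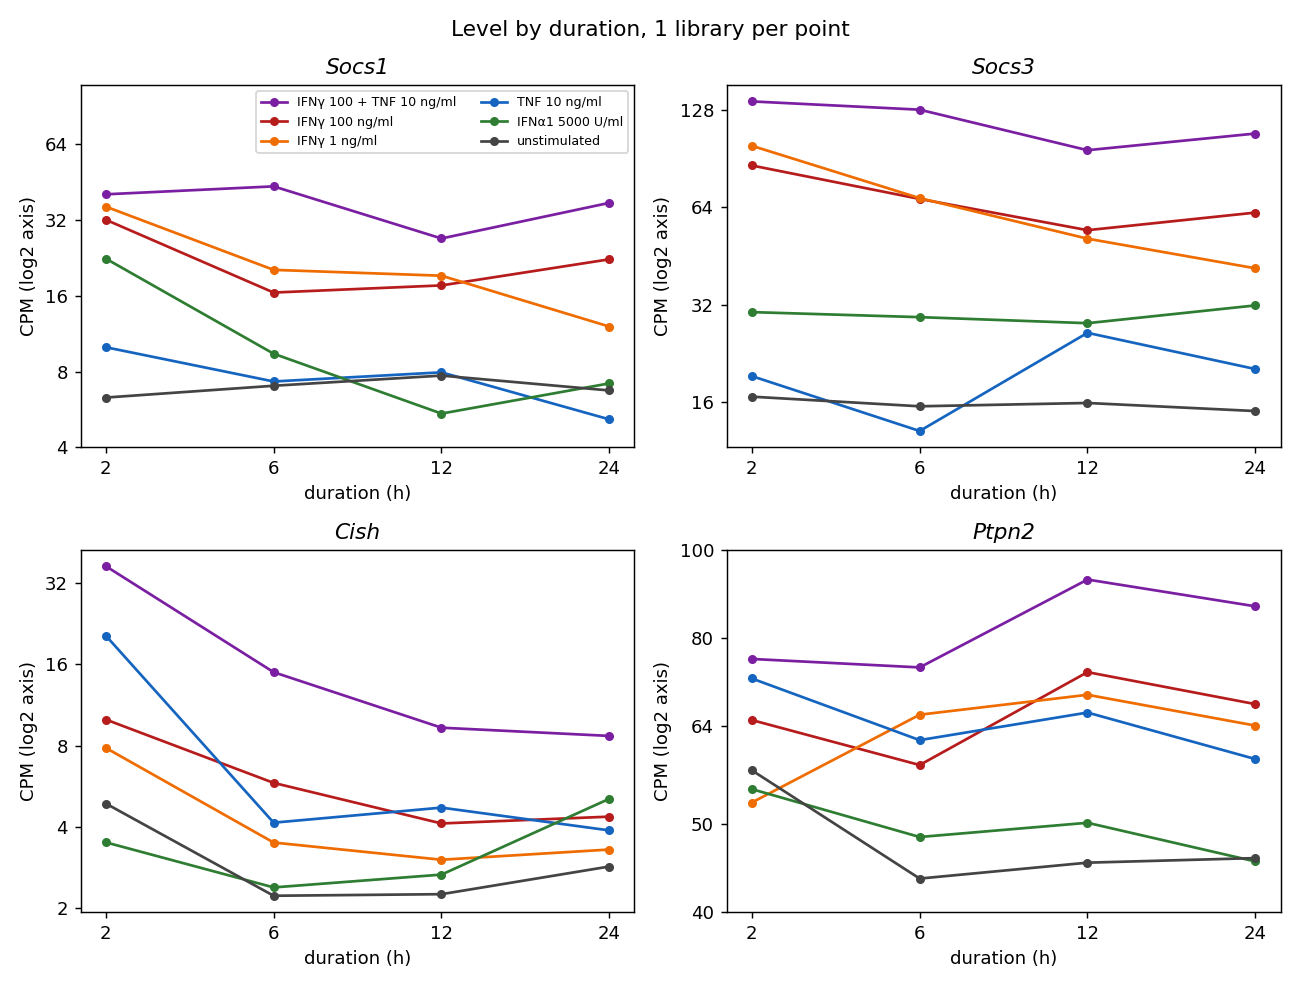
CPM (log2 axis) against hours of exposure for Socs1, Socs3, Cish and Ptpn2, 1 point per library, with a line for each of the combination, IFNγ at 100 and 1 ng/ml, TNF at 10 ng/ml, IFNα1 and unstimulated cells. Socs3 stays at 54.4 CPM or above with IFNγ at 100 ng/ml, whereas Cish has its highest value at 2 h in the combination, TNF and unstimulated lines.

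Most members differed between IFNγ at 0.01 and 1 ng/ml, and none was called between 1 and 100 ng/ml. Socs3 had 19.95, 17.3, 18.8 and 15.97 CPM at 0.01 ng/ml, 99.05, 68.3, 51.2 and 41.5 CPM at 1 ng/ml and the values above at 100 ng/ml. The lowest dose gave values close to unstimulated cells, and the upper doses overlapped. Between 1 and 0.01 ng/ml, 7 of 9 members differed, against 12.5% of all genes. At the higher dose 6 of them were higher, against 8.46% of all genes, and 1 was lower, against 4.06%. Socs3 differed by 1.83 ± 0.16 (log2 change ± approximate SE; adjusted p 6.70e-11, edgeR's quasi-likelihood test) and Socs1 by 1.49 ± 0.26 (adjusted p 1.27e-04), each higher at 4 of 4 durations. Socs1 had 10.1, 8.28, 7.82 and 4.56 CPM at 0.01 ng/ml and 36.2, 20.3, 19.2 and 12.1 CPM at 1 ng/ml, and these groups did not overlap. Socs2 was the member that was lower, at -0.64 ± 0.21 (adjusted p 0.0396), and Socs6 was higher at 0.18 ± 0.06 (adjusted p 0.0382), but both calls were lost without any 1 of the 4 durations (adjusted p between 0.0572 and 0.214 for Socs2 and between 0.0777 and 0.158 for Socs6). Ptpn2 (0.42 ± 0.09, adjusted p 0.00185) was no longer called without the 12 h (adjusted p 0.0530) or 24 h libraries (0.0621). Between 100 and 1 ng/ml 0 of 9 were called by edgeR, against 0% of all genes, with 0 at an unadjusted p under 0.05 and 0 by DESeq2. Socs3 differed there by 0.07 ± 0.14 and Socs1 by 0.05 ± 0.23 (log2 change ± approximate SE). At 0.01 ng/ml against unstimulated cells, 0 of 9 were called, against 0%, with 0 at an unadjusted p under 0.05 and 0 by DESeq2.

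**Figure D3:**
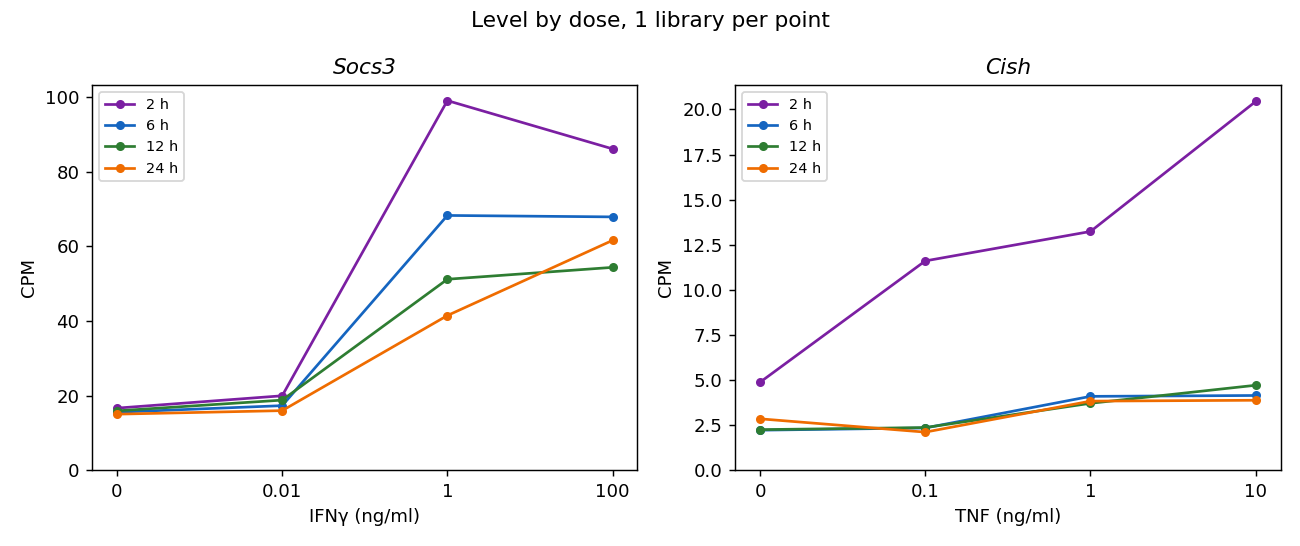
CPM of Socs3 by IFNγ dose and of Cish by TNF dose, both in ng/ml with unstimulated cells at dose 0, as 1 line per duration. Socs3 is at most 19.95 CPM up to 0.01 ng/ml and above 41 CPM at 1 ng/ml, and Cish increases with dose most visibly in the 2 h line.

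IFNα1, which signals through the type I interferon receptor, gave a smaller Socs3 response than IFNγ at 1 and 100 ng/ml. At 2 h it also gave a Socs1 value above that of unstimulated cells. With IFNγ at 0.01 ng/ml Socs3 was at most 19.95 CPM, below all its values with IFNα1. IFNα1 was given at a single dose in U/ml, which cannot be matched to the IFNγ doses in ng/ml. Socs3 had 30.4, 29.3, 28.1 and 31.8 CPM at 2, 6, 12 and 24 h with IFNα1, against 16.6, 15.5, 15.9 and 15.03 CPM in unstimulated cells, and the groups did not overlap. Its log2 change was 0.93 ± 0.17 (adjusted p 1.53e-04, edgeR's quasi-likelihood test), higher at 4 of 4 durations, and it was called within each pair of durations. The summed fibroblast markers were 22.1 to 55.6 CPM with IFNα1 and 23.4 to 36.2 CPM in unstimulated cells, and their part in this result was not tested. Socs1 had 22.5, 9.43, 5.45 and 7.19 CPM with IFNα1, so that only the 2 h library stood apart, with a ratio of 3.56 (95% interval 2.53 to 5.10) there and of 0.707 (95% interval 0.454 to 1.09) at 12 h. Over all durations Socs1 was not called, at 0.60 ± 0.29 (adjusted p 0.214). Compared directly, IFNγ at 100 ng/ml differed from IFNα1 for 6 of 9 members, against 16.1% of all genes. Socs3 was higher with IFNγ by 1.16 ± 0.15 (adjusted p 9.94e-07), and Socs1 by 1.06 ± 0.25 (adjusted p 0.00344), though for Socs1 this was 0.64 within 2 h and 6 h (adjusted p 0.372) and 1.64 within 12 h and 24 h (adjusted p 0.00234). The Socs1 call was also lost without the 12 h (adjusted p 0.0583) or 24 h libraries (0.0673). Whether the change with time differed between IFNγ and IFNα1 was asked after the values were seen: the log2 change per doubling of time for Socs1 differed by 0.37 ± 0.15, which was not called (adjusted p 0.167, edgeR's quasi-likelihood test), while 1 of 9 slopes differed, that of Cish (-0.46 ± 0.13, adjusted p 0.0308), against 5.44% of all genes. The members' share is close to that background. The Cish call was lost without the 2 h (adjusted p 0.0986), 12 h (adjusted p 0.117) or 24 h libraries (adjusted p 0.578). The same question for the combination against TNF gave 0 of 9 by edgeR, against 3.27%, with 3 at an unadjusted p under 0.05 (Socs3, Socs5 and Ptpn2), while a term for early against late durations called Socs3 there (-0.91, adjusted p 0.0228).

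Cish, which encodes CIS, was called with TNF as well as with IFNγ and had its highest values at 2 h. With TNF at 10 ng/ml it had 20.4, 4.14, 4.71 and 3.88 CPM at 2, 6, 12 and 24 h, against 4.88, 2.22, 2.25 and 2.85 CPM in unstimulated cells. The 2 h library with TNF was far above the rest, and the later ones overlapped the unstimulated range. The change was 1.29 ± 0.31 on the log2 scale (adjusted p 0.00291, edgeR's quasi-likelihood test), higher at 4 of 4 durations. It was 1.67 within 2 h and 6 h (adjusted p 0.0117) and 0.75 within 12 h and 24 h (adjusted p 0.131). Without the duration term in the model it was 1.43 and no longer called (adjusted p 0.195). At 2 h the ratio to unstimulated cells was 2.38 (95% interval 1.58 to 3.65) at 0.1 ng/ml, 2.71 (95% interval 1.83 to 4.12) at 1 ng/ml and 4.19 (95% interval 2.86 to 6.29) at 10 ng/ml of TNF. The 2 h library of unstimulated cells held 34 Cish counts, which limits the precision of all these ratios. Over all durations TNF at 1 ng/ml gave 0.95 ± 0.32 (adjusted p 0.0965) and was not called, though it was in a fit of the compared groups alone (0.98, adjusted p 0.0118). At that dose 0 of 9 members were called by edgeR, against 2.72%, with 3 at an unadjusted p under 0.05 (Socs7, Cish and Ptpn2) and 0 by DESeq2. At 0.1 ng/ml 0 of 9 were called, against 0.0164%, with 1 at an unadjusted p under 0.05 (Socs3) and 0 by DESeq2. Neighbouring TNF doses also gave 0 of 9, with 0.238% of all genes called between 10 and 1 ng/ml and 0% between 1 and 0.1 ng/ml; 1 member (Ptpn2) and 0 members had an unadjusted p under 0.05 there, and DESeq2 called 0 in both.

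With IFNγ at 100 ng/ml Cish had 9.99, 5.82, 4.12 and 4.36 CPM, against 4.88, 2.22, 2.25 and 2.85 CPM in unstimulated cells, and the ranges overlapped. It was called at 0.98 ± 0.32 (adjusted p 0.0240, edgeR's quasi-likelihood test), but the call was lost within either pair of durations (adjusted p 0.0851 and 0.114), without the 6 h libraries (0.161) and without the 12 h libraries (0.116), and with cells given IL-2 as the comparison in place of unstimulated cells (0.0724). The call was also lost without a filter on low counts (adjusted p 0.0691) and without the duration term (0.384). The Cish gene shares 261 exon bases on the opposite strand with the pseudogene Gm17040, which had 12 counts over all libraries, and 479 with the antisense gene Gm17041, which had 0. The strand setting of the counting is not given in the sources used here.

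Ptpn2, the phosphatase, moved by less but in several stimuli. It had 72.2, 61.8, 66.3 and 58.9 CPM with TNF at 10 ng/ml and 65.01, 58.03, 73.4 and 67.7 CPM with IFNγ at 100 ng/ml at 2, 6, 12 and 24 h, against 57.3, 43.6, 45.3 and 45.9 CPM in unstimulated cells. Both stimulated ranges lay above the unstimulated one. The log2 change was 0.43 ± 0.09 with TNF (adjusted p 0.00117, edgeR's quasi-likelihood test) and 0.46 ± 0.09 with IFNγ at 100 ng/ml (adjusted p 3.33e-04), each higher at 4 of 4 durations. Within 2 h and 6 h neither was called, at 0.42 (adjusted p 0.0711) with TNF and 0.30 (adjusted p 0.182) with IFNγ. IFNγ at 1 ng/ml gave 0.40 ± 0.09 (adjusted p 0.00283), higher at 3 of 4 durations, and was no longer called without the 6 h (adjusted p 0.0670) or 12 h libraries (0.0973). Summed endothelial markers, nearly all Cdh5, reached 18.5 CPM with TNF at 10 ng/ml against at most 6.80 CPM in unstimulated cells. The summed fibroblast markers were 24.3 to 68.5 CPM with TNF at 10 ng/ml and 23.4 to 36.2 CPM in unstimulated cells, and the part of either sum in the TNF results was not tested.

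The combination of IFNγ and TNF gave the highest mean level of Socs1, Socs3, Cish and Ptpn2 among the 12 groups. Socs3 had 136, 128, 95.99 and 108 CPM at 2, 6, 12 and 24 h, against 86.1, 67.9, 54.4 and 61.6 CPM with IFNγ alone and 19.3, 13.04, 26.2 and 20.3 CPM with TNF alone. Against unstimulated cells its log2 change was 2.89 ± 0.16 (adjusted p 4.50e-17), and those of Socs1, Cish and Ptpn2 were 2.42 ± 0.26 (adjusted p 1.37e-09), 2.42 ± 0.29 (adjusted p 7.66e-09) and 0.79 ± 0.09 (adjusted p 6.47e-09), each higher at 4 of 4 durations and called in every alternative setting. The mitochondrial share of counts was the lowest of the 12 groups in the combination at 12 h (0.616%, against 0.786% in unstimulated cells) and 24 h (0.513%, against 0.964%). Summed endothelial markers reached 13.35 CPM in the combination, against at most 6.80 CPM in unstimulated cells, and the part of these values in the combination's results was not tested. Every combination library was above every library of either single cytokine for Socs3, although Socs3 was not called with TNF alone over all durations (0.31 ± 0.18, adjusted p 0.232, edgeR's quasi-likelihood test). The TNF change of Socs3 was -0.01 within 2 h and 6 h (adjusted p 0.987) and 0.58 and called within 12 h and 24 h (adjusted p 0.0137). Over IFNγ alone, 5 of 9 members were called, all higher, against 13.9% of all genes called in either direction, with a median of 0.32 against -0.01. Socs3 was higher by 0.80 ± 0.14 (adjusted p 5.58e-05) and held in every alternative setting. Socs1 had 40.5, 43.5, 27.03 and 37.4 CPM in the combination, and these values overlapped those with IFNγ alone through the 12 h library. Its log2 change over IFNγ alone was 0.77 ± 0.22 (adjusted p 0.0176), higher at 4 of 4 durations, but the call was lost without the 6 h libraries (0.58, adjusted p 0.274), the 12 h libraries (adjusted p 0.0549) or the 24 h libraries (adjusted p 0.0648).

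Of the members, Cish had the largest log2 difference from IFNγ alone. It had 36.99, 14.97, 9.32 and 8.69 CPM at 2, 6, 12 and 24 h in the combination, against 9.99, 5.82, 4.12 and 4.36 CPM with IFNγ alone and 20.4, 4.14, 4.71 and 3.88 CPM with TNF alone. At each duration the combination was the highest of the 3, and each had its highest value at 2 h. The log2 change was 1.44 ± 0.26 over IFNγ (adjusted p 1.04e-04, edgeR's quasi-likelihood test) and 1.13 ± 0.25 over TNF (adjusted p 0.00119), each higher at 4 of 4 durations. Without the 6 h libraries the difference from TNF was 0.92 and no longer called (adjusted p 0.0839), and without the duration term neither difference was called (adjusted p 0.137 over IFNγ and 0.373 over TNF). Ptpn2 had 75.9, 74.3, 92.7 and 86.7 CPM in the combination and was higher by 0.32 ± 0.09 over IFNγ (adjusted p 0.0130), a call that was lost without the 6 h (adjusted p 0.0964), 12 h (0.108) or 24 h libraries (0.0525). Over TNF alone 5 of 9 members were called, all higher, against 14% of all genes called in either direction. Socs3 led at 2.57 ± 0.15 (adjusted p 2.56e-15, edgeR's quasi-likelihood test), with the smallest p of the 12203 genes. Socs1 came next at 2.32 ± 0.26 (adjusted p 1.36e-08). TNF and IFNγ at their highest doses differed for 2 of 9 members, against 10.4%, Socs1 (-1.55 ± 0.27, adjusted p 6.31e-05) and Socs3 (-1.77 ± 0.16, adjusted p 9.05e-11), both lower with TNF.

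On the log2 scale, the change in the combination minus the sum of the single changes was called for 0 of 9 members by edgeR, against 0.0819% of all genes, with 2 at an unadjusted p under 0.05 (Socs2 and Socs3) and 0 by DESeq2. It was 0.49 ± 0.22 for Socs3 (adjusted p 0.366), 0.66 ± 0.38 for Socs1 (adjusted p 0.488), 0.15 ± 0.42 for Cish (adjusted p 0.923) and -0.11 ± 0.13 for Ptpn2 (adjusted p 0.782). These standard errors limit what could be detected with 1 library per duration, most of all for Cish, and the lack of a call does not show that the effects added up.

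**Figure D4:**
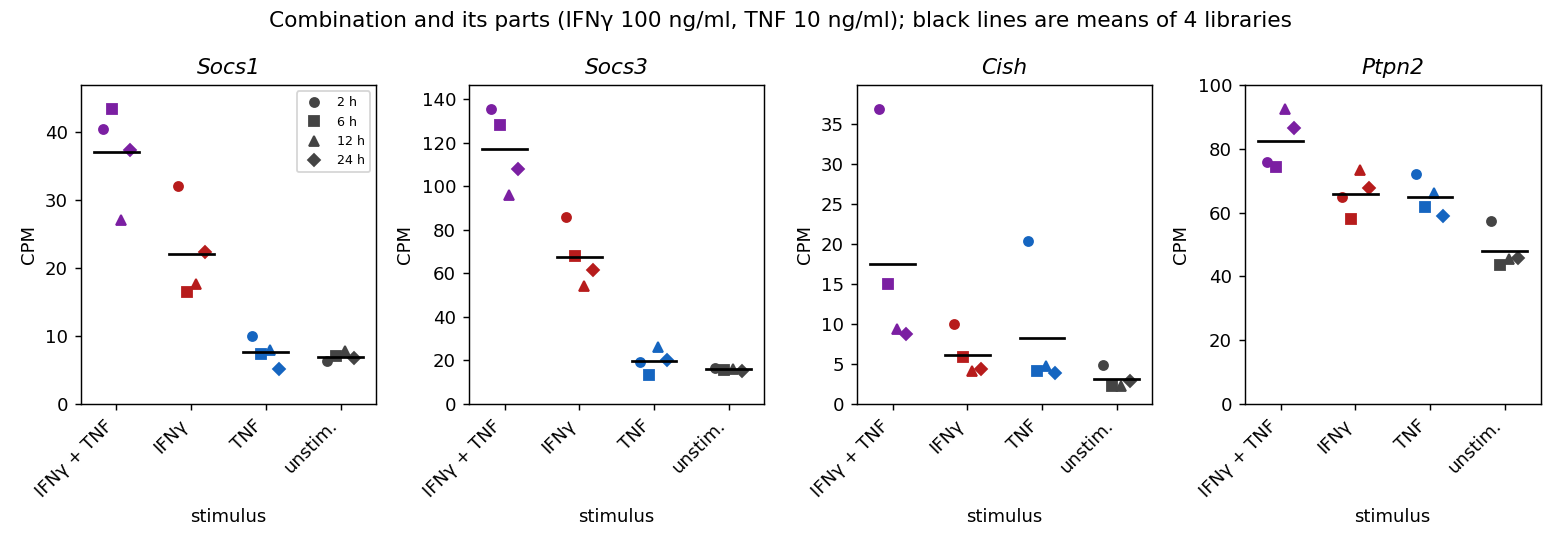
CPM of Socs1, Socs3, Cish and Ptpn2 in the combination, IFNγ at 100 ng/ml, TNF at 10 ng/ml and unstimulated cells, with 1 point per duration and a black line at the mean of 4. The combination has the highest mean in each panel, and its points are separate from those of IFNγ alone for Socs3 and Ptpn2.

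Socs2, known chiefly as a brake on growth hormone receptor signalling, had negative changes, none of them called, with IFNγ (1 and 100 ng/ml) and with TNF (1 and 10 ng/ml). It had 8.88, 6.95, 7.24 and 6.74 CPM at 2, 6, 12 and 24 h with IFNγ at 100 ng/ml, against 15.4, 8.02, 8.20 and 10.2 CPM in unstimulated cells. Every duration was lower with IFNγ, but the ranges overlapped and the change of -0.48 ± 0.21 was not called (adjusted p 0.0999, edgeR's quasi-likelihood test). With cells given IL-2 as the comparison in place of unstimulated cells, Socs2 was called lower with IFNγ at 1 ng/ml (-0.79, adjusted p 0.00857), IFNγ at 100 ng/ml (-0.71, adjusted p 0.0117) and TNF at 10 ng/ml (-0.63, adjusted p 0.0296). With IFNγ at 1 ng/ml it was also called in a fit of the compared groups alone (-0.55, adjusted p 0.0423). With IFNα1 it had 14.5, 10.8, 14.1 and 15.6 CPM, and the difference of IFNγ at 100 ng/ml from IFNα1 was -0.90 ± 0.20 (adjusted p 0.00208), with ranges that did not overlap. Within 2 h and 6 h that difference was -0.72 and not called (adjusted p 0.269). Under TGFβ it had 19.8, 5.46, 7.34 and 15.6 CPM, a wide range over durations, and was not called (0.17 ± 0.20, adjusted p 0.732).

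Socs4, Socs5, Socs6 and Socs7, whose products are mostly studied outside interferon signalling, had log2 changes over unstimulated cells of at most 0.43 in size. Socs5 had 196, 238, 186 and 169 CPM in the combination and 169, 227, 194 and 165 CPM with IFNγ at 100 ng/ml at 2, 6, 12 and 24 h, against 173, 175, 127 and 116 CPM in unstimulated cells. The unstimulated values were lower at 12 h and 24 h than before, and there the stimulated cells stood above them, while at 2 h IFNγ alone was not above them and the groups overlapped. The change was 0.42 ± 0.09 in the combination (adjusted p 2.29e-04, edgeR's quasi-likelihood test), 0.36 ± 0.09 at 100 ng/ml (adjusted p 0.00326) and 0.27 ± 0.09 with TNF at 10 ng/ml (adjusted p 0.0337). The combination call of Socs5 was lost within 2 h and 6 h (0.31, adjusted p 0.189) and without the duration term (adjusted p 0.110). The TNF call of Socs5 was lost without the 6 h (adjusted p 0.0995), 12 h (0.143) or 24 h libraries (0.171), and that of IFNγ at 100 ng/ml without the 12 h (0.115) or 24 h libraries (0.0549) and within 2 h and 6 h, where the change was 0.17 (adjusted p 0.596). Socs7 had 69.6, 81.98, 75.6 and 59.04 CPM in the combination, against 59.3, 49.7, 53.5 and 49.1 CPM in unstimulated cells, and was higher by 0.43 ± 0.06 (adjusted p 1.95e-07) at 4 of 4 durations, a call that held in every alternative setting. It was higher with IFNγ at 100 ng/ml by 0.23 ± 0.06 (adjusted p 0.00461), a call that was lost within 2 h and 6 h (0.15, adjusted p 0.451), without the 12 h libraries (adjusted p 0.113), in a fit of the compared groups alone (adjusted p 0.0886) and without the duration term (adjusted p 0.189). Over IFNγ alone the combination was higher by 0.20 ± 0.06 (adjusted p 0.0183), lost without the 6 h (0.10, adjusted p 0.399) or 12 h libraries (0.0743) and within 12 h and 24 h (0.076, adjusted p 0.574).

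Socs6 was the member called with TGFβ, a ligand that signals through SMAD factors and not through JAKs. It had 72.5, 74.4, 82.7 and 79.6 CPM at 2, 6, 12 and 24 h with TGFβ, against 71.2, 62.2, 61.7 and 59.7 CPM in unstimulated cells. The groups did not overlap, with the lowest TGFβ library just above the highest unstimulated one. The change was 0.28 ± 0.06 (adjusted p 7.10e-04, edgeR's quasi-likelihood test), 0.14 within 2 h and 6 h (adjusted p 0.603) and 0.42 within 12 h and 24 h (adjusted p 6.51e-04). The call was lost without the 12 h libraries (adjusted p 0.0739). Summed endothelial markers reached 27.1 CPM with TGFβ, against at most 6.80 CPM in unstimulated cells, and their part in this result was not tested. Socs6 was also higher in the combination by 0.23 ± 0.06 (adjusted p 0.00180) and with IFNγ at 100 ng/ml by 0.21 ± 0.06 (adjusted p 0.00805), the last lost without the 6 h (adjusted p 0.118) or 12 h libraries (0.0977) and the combination call lost within 2 h and 6 h (adjusted p 0.110) and in a fit of the compared groups alone (adjusted p 0.0844). Socs4 lay between 53.0 and 77.4 CPM in all 48 libraries and was called for no stimulus, except for IFNγ at 100 ng/ml when the 2 h libraries were left out (0.22, adjusted p 0.0422). Lymphotoxin, a TNF family ligand, and IL-2 gave 0 of 9 calls by edgeR, each against 0% of all genes, with 0 at an unadjusted p under 0.05 and 0 by DESeq2.

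**Figure D5:**
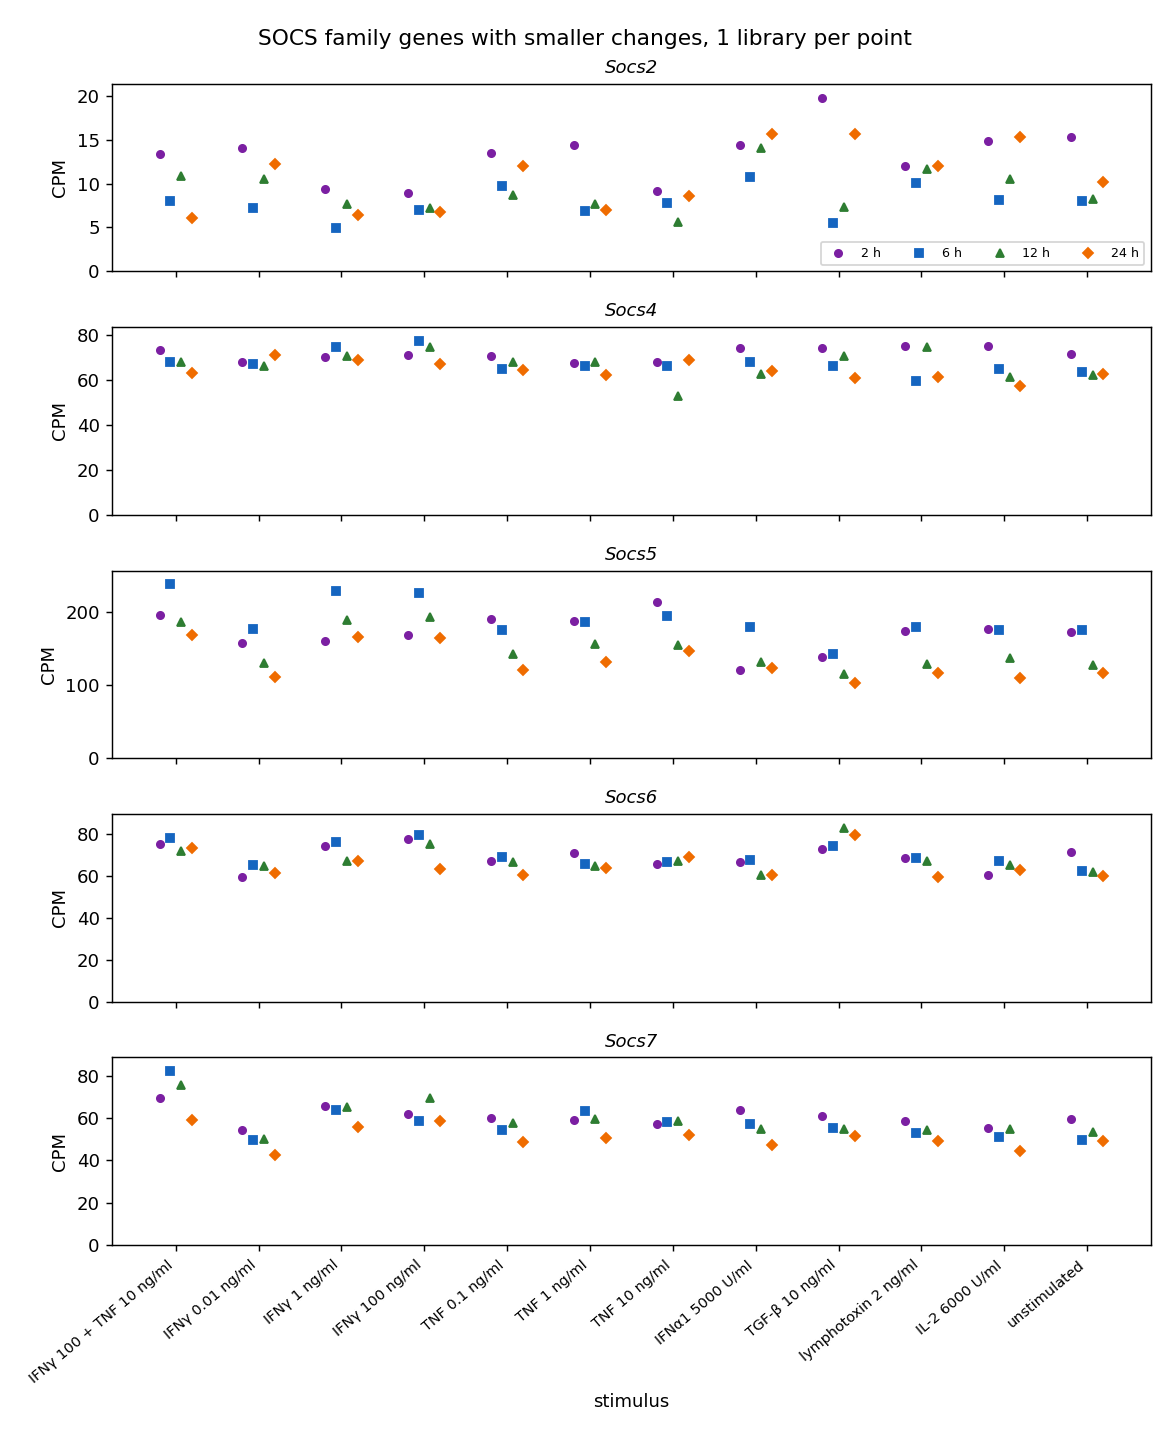
CPM of Socs2, Socs4, Socs5, Socs6 and Socs7 in all 12 groups, 1 point per duration, with unstimulated cells last. The Socs2 points under TGFβ run between 5.46 and 19.8 CPM, and the TGFβ points of Socs6 lie above its unstimulated points.

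A test over the 4 durations called 9 of 9 members and 86.9% of all genes, so the members' share is near the background. Most of the 12 groups in this test were stimulated, so time in culture and the course of a response cannot be told apart there. Averaged over the 12 groups, Cish was lower at 6 h than at 2 h (log2 difference -1.34 ± 0.16, adjusted p 7.59e-09, edgeR's quasi-likelihood test). The same difference was -0.76 ± 0.12 (adjusted p 6.20e-07) for Socs2. At 24 h against 2 h it was -0.39 ± 0.05 (adjusted p 2.27e-08) for Socs5, -0.66 ± 0.16 (adjusted p 3.27e-04) for Socs1 and -0.39 ± 0.09 (adjusted p 3.82e-04) for Socs3. The unstimulated cells took part in the Cish pattern, with 4.88 CPM at 2 h and 2.22 to 2.85 CPM later. Their Socs1 values were 6.31 CPM at 2 h and 6.74 CPM at 24 h, and those of Socs3 16.6 and 15.03 CPM. Without the 2 h libraries the calls over durations were lost for Socs1 (adjusted p 0.120, edgeR's quasi-likelihood test), Socs3 (0.374), Socs4 (0.383) and Cish (0.323). Comparisons of 12 h or 24 h with 2 h also cross the sets of libraries that reuse the same indexes, so duration and set cannot be told apart there, while 6 h and 2 h belong to the same set.

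Whether a stimulus effect itself changed with time was tested as a slope on log2 hours. Of 99 pairs of member and stimulus 6 were called, against 0% to 17.4% of all genes, depending on the stimulus. With IFNγ at 1 ng/ml 3 of 9 slopes were called, against 5.05% of all genes. The Socs3 effect declined with time, at -0.32 ± 0.09 per doubling (adjusted p 0.0342, edgeR's quasi-likelihood test), and single-duration ratios were 5.95, 4.39, 3.22 and 2.76 at 2, 6, 12 and 24 h. The effects on Socs5 (0.19 ± 0.05, adjusted p 0.0125) and Ptpn2 (0.17 ± 0.05, adjusted p 0.0419) grew, although that of Ptpn2 changed sign without the 2 h libraries (-0.063, adjusted p 0.837). In the combination 2 of 9 were called, against 17.4%, a share near the background. There the Cish effect declined, at -0.36 ± 0.12 (adjusted p 0.0422), and that of Ptpn2 grew, at 0.16 ± 0.05 (adjusted p 0.0202). Cish had ratios of 7.58 (95% interval 5.29 to 11.2), 6.74, 4.14 and 3.05 at the 4 durations. With IFNγ at 100 ng/ml 1 of 9 was called, against 6.9%, again near the background. It was Socs5, at 0.17 ± 0.04 (adjusted p 0.0187). In the other 8 stimuli 0 of 9 slopes were called by edgeR, against 0.828% of all genes for IFNα1, 0.0574% for TNF at 0.1 ng/ml, 0.0574% at 1 ng/ml, 2.43% at 10 ng/ml, 1.49% for TGFβ and 0% for IFNγ at 0.01 ng/ml, lymphotoxin and IL-2, with 0 to 3 members at an unadjusted p under 0.05. DESeq2 was not run on slopes. All 6 slope calls were lost without the 2 h libraries (adjusted p 0.194 to 0.837) and without the 24 h libraries (adjusted p 0.0516 to 0.480). Without the 2 h libraries the Cish slope in the combination was -0.58 and the Socs3 slope -0.34, no smaller in size than over all durations. The Socs5 slopes were then 0.065 with IFNγ at 1 ng/ml and 0.067 at 100 ng/ml, and the Ptpn2 slope in the combination was 0.072, each less than that over all durations. With a term for early against late durations in place of the slope, 0 of the 99 pairs were called. The share of all genes called with that term is not given here.

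Ordered by mean level, Socs3 ran from the combination (117 ± 18.2 CPM, mean ± SD over 4 durations) through IFNγ at 100 ng/ml (67.5 ± 13.6), IFNγ at 1 ng/ml (64.99 ± 25.3) and IFNα1 (29.9 ± 1.61) to groups near the unstimulated level (15.8 ± 0.680). Neighbours whose ranges did not overlap were the combination and IFNγ at 100 ng/ml, IFNγ at 1 ng/ml and IFNα1, and IFNα1 and TNF at 0.1 ng/ml, while all other neighbours overlapped. For Ptpn2 the combination (82.4 ± 8.83 CPM) and IFNγ at 100 ng/ml (66.03 ± 6.37) did not overlap, and all lower neighbours did. For Socs1 and Cish all neighbours in the order overlapped. The highest library exceeded the lowest by 19.9-fold for Cish, 11.6-fold for Socs3 and 9.54-fold for Socs1, against 1.39-fold for Socs6 and 1.46-fold for Socs4.

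Per kilobase of annotated exon sequence, the mean level in unstimulated cells was highest for Socs5 (23.1 CPM per kb) and Ptpn2 (15.4), and lowest for Socs2 (1.10) and Cish (0.475). Socs3 stood at 5.46 and Socs1 at 2.39 CPM per kb in unstimulated cells. In their highest libraries Socs3 reached 46.97, Socs1 14.97 and Cish 5.76 CPM per kb, so that Socs3 then exceeded the unstimulated level of Socs5. These lengths take the union of all annotated exons, which can be longer than the transcripts present.

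Likeness in pattern was described by Pearson's r over the 48 libraries, on log2 CPM centred on each duration. Socs1 and Socs3 had r = 0.91 with each other, Socs5 and Ptpn2 0.84, and Socs7 and Ptpn2 0.79. Socs2 had negative values with all 8 other members, between -0.51 and -0.12. Among all genes, those most like Socs3 were Notch1 (0.96), Gna13 (0.95), Ptpn13 (0.95), Adamts1 (0.94) and Irf1 (0.94), and those most like Socs1 were 1110038F14Rik (0.94), Socs3 (0.91), Gna13 (0.91), Notch1 (0.91) and Irf1 (0.90). For Cish they were Nfkb1 (0.87), Ptx3 (0.86), Noct (0.85), Errfi1 (0.85) and Icam1 (0.84). The 48 points share stimuli, durations and sequencing depth, and the values are descriptions only.

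The other genes of the pathway, in lists chosen with earlier results of these data known, moved with the members in part. Of 10 tested JAK kinases and STAT factors, 9 were higher in the combination (median log2 change 0.48, against -0.03 over all genes), 5 with IFNγ at 100 ng/ml, 5 with TNF at 10 ng/ml and 5 with IFNα1. The share of all tested genes called in either direction was 42% in the combination, 22.1% with IFNγ, 17.1% with TNF and 9.27% with IFNα1. Jak2, a kinase that SOCS1 and SOCS3 inhibit, was higher by 1.48 ± 0.12 in the combination (adjusted p 1.48e-12, edgeR's quasi-likelihood test) and by 1.04 ± 0.12 with IFNγ (adjusted p 3.03e-08). Stat3, a factor known to induce Socs3, was higher by 1.73 ± 0.26 with IFNγ (adjusted p 6.16e-06). Of 9 tested ligands, 7 were higher in the combination, including Il6, at 4.89 ± 0.59 (adjusted p 3.88e-08), and Lif, at 1.84 ± 0.15 (adjusted p 6.87e-12), both ligands of receptors that activate STAT3. Of 14 tested receptor genes, 10 were higher and 1 (Il6ra) was lower in the combination, with Osmr, a subunit of the oncostatin M receptor, at 2.54 ± 0.23 (adjusted p 1.22e-11). Of 11 other negative regulators, 3 were higher (Ptpn11, Usp18 and Cblb) and 2 lower (Ptpn6 and Pias3) in the combination, a share near the 42% of all genes, with Usp18, an inhibitor of the type I interferon receptor, at 1.34 ± 0.24 (adjusted p 3.61e-05). Of 10 parts of the SOCS box ubiquitin ligase, 3 were higher (Cul2, Arih2 and Ube2m) and 1 was lower (Nedd8) in the combination, again near the 42% of all genes. The median log2 change in the combination was 2.19 for the ligands, 0.54 for the receptors, 0.04 for the negative regulators and -0.03 for the SOCS box parts. With TGFβ 1 of the 9 ligands (Il11) was higher, against 8.28% of all genes called in either direction.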

How the data were processed

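Stranded polyadenylated RNA libraries of NMM cells in 12 groups, 1 library at each of 4 durations, were deposited by the authors as raw read counts per gene for 49671 genes. Reads were aligned with HISAT to GRCm38, per the submitters' processing notes. Not given in the sources used here are the version of HISAT, the counter, its annotation release and its strand setting. Doses follow the titles, since other label fields give 1 for the doses of 0.1 and 0.01 ng/ml. Supernatant of co-cultures, which the labels' protocols mention, was not analysed here. The table held 0 value columns without a sample.

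Genes were kept by edgeR's filter (minimum count 10, minimum total 15), libraries were scaled by TMM factors (0.893 to 1.05), and 12203 genes were tested in R 4.3.3 with edgeR 4.0.16 and limma 3.58.1. The model had terms for stimulus and duration over all 48 libraries (33 residual degrees of freedom), and a second one had a slope on log2 hours per stimulus (22 residual degrees of freedom). Tests were quasi-likelihood F tests with Benjamini-Hochberg adjustment over all tested genes and a threshold of 0.05. Log2 changes are on the CPM scale, the approximate SE is the ratio of the log2 change to the root of the F statistic, and log2 CPM used a prior count of 2. Same-duration libraries are paired by the design, since the labels give the duration, and the duration term is that block. There were 20 comparisons between stimuli. DESeq2 1.42.0, its size factors, no filter, a minimum count of 30, the compared groups alone, no duration term, IL-2 as the reference, pairs of durations and leaving out each duration were the alternatives. Depth was 5612907 to 9663207 counts per library.

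The test was run on simulated counts with 200 changed genes of the 12203, made for IFNγ at 0.01 ng/ml against unstimulated cells. It recovered 66% of 50 genes changed 1.5-fold, 82% of those changed 2-fold, 96% at 3-fold and 94% at 4-fold, with 4 false calls among 12003 unchanged genes. Recovery below 1.5-fold (log2 0.585) was not tested. The log2 changes of Socs5, Socs6 and Socs7 over unstimulated cells, at most 0.43 in size, lie below that. Recovery of effects that differ between durations is not given here. The 9 members and the pathway lists were chosen with earlier results of these data known. All members are named with values, and genes of the other lists are given as counts called in each direction, with values for those the text turns on. Promoters came from the RefSeq table by gene symbol.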

Additional observations from a re-analysis of the deposited data

Results flagged for a closer look

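Each member in each group has 4 libraries, 1 per duration, and in 7 of these 108 sets a single library stood far from the other 3, by a test on the gap at its 95% limit. Chance flags about 1 in 20 groups, and the 4 values are durations and not replicates. Cish supplied 4 of the 7, always with the 2 h library highest: 20.4 CPM with TNF at 10 ng/ml, 13.2 CPM at 1 ng/ml and 11.6 CPM at 0.1 ng/ml, and 7.84 CPM with IFNγ at 1 ng/ml. Socs2 had 14.4 CPM at 2 h with TNF at 1 ng/ml, where the other durations lay between 6.83 and 7.71 CPM. Socs4 had 53.0 CPM at 12 h with TNF at 10 ng/ml, below the other durations, and 71.5 CPM at 2 h in unstimulated cells, above the other durations.

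Slopes called against unstimulated cells were those of Socs3 (-0.32 per doubling of time), Socs5 (0.19) and Ptpn2 (0.17) with IFNγ at 1 ng/ml. The others were those of Socs5 with IFNγ at 100 ng/ml (0.17), and of Cish (-0.36) and Ptpn2 (0.16) in the combination. A comparison of slopes between IFNγ at 100 ng/ml and IFNα1, chosen after the values were seen, gave -0.46 for Cish (adjusted p 0.0308, edgeR's quasi-likelihood test). Each of these slope calls was lost without the 2 h libraries, without the 24 h libraries and with a term for early against late durations. The Ptpn2 slope with IFNγ at 1 ng/ml was -0.063 without the 2 h libraries. No replicate exists at any single duration to set these time courses against.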

How the results depend on the processing

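Of 56 called member results with a log2 change or slope, 19 held in every setting that could be run, among them Socs1 and Socs3 with IFNγ at 1 and 100 ng/ml and in the combination. DESeq2, its size factors and a minimum count of 30 lost 0 calls. A limit of the design is that each group has 1 library per duration. Among all called member results, 26 were lost without the duration term, which keeps all 48 libraries. Within 2 h and 6 h 32 were lost, and within 12 h and 24 h 14. Without the duration term (no replicate block), the number of members called was 3 (7 with the term) for IFNγ at 100 ng/ml, 2 (5) for IFNγ at 1 ng/ml, 1 (3) for TNF at 10 ng/ml, 4 (7) for IFNγ at 1 against 0.01 ng/ml, 1 (5) for the combination against IFNγ, 3 (5) for the combination against TNF and 1 (6) for IFNγ against IFNα1. In the same order, the calls over all genes were 615 (2702 with the term), 355 (1827), 355 (2091), 284 (1527), 350 (1697), 426 (1704) and 134 (1964). Within 2 h and 6 h the number of members called was 2 for IFNγ at 100, 2 at 1 ng/ml and 1 for TNF at 10 ng/ml. For TGFβ it was 0 by edgeR there, against 1 by edgeR over all durations. Also within 2 h and 6 h, it was 2 for IFNγ at 1 against 0.01 ng/ml and 2 for the combination against IFNγ. It was 1 for IFNγ against IFNα1 and 5 (8) for any stimulus. Calls over all genes within 2 h and 6 h were 449 for IFNγ at 100, 282 at 1 ng/ml, 288 for TNF and 347 (1010) for TGFβ. They were 159 for IFNγ at 1 against 0.01 ng/ml and 414 for the combination against IFNγ. For IFNγ against IFNα1 they were 170, and for any stimulus 1889 (6375). Within 12 h and 24 h the number of members called was 1 (0) for TNF at 1 ng/ml, 3 (5) for the combination against IFNγ and 3 (9) for any duration. The calls over all genes were 420 (332), 2025 (1697) and 4730 (10603) in the same order. With the compared groups alone the number of members called was 3 for IFNγ at 1 ng/ml, 2 (0) for TNF at 1 ng/ml and 2 (1) for TGFβ. Over all genes there were 1339 (1827), 918 (332) and 841 (1010) calls in the same order. A term for early against late durations gave 0 slopes (6). Leaving out 1 duration at a time gave 3 to 8 members for IFNγ at 100 ng/ml, 2 to 6 at 1 ng/ml, 2 to 3 for TNF at 10 and 0 to 1 at 1 ng/ml, 7 to 7 for the combination, 1 to 1 for IFNα1, 0 to 2 for TGFβ, 3 to 5 for IFNγ at 1 against 0.01 ng/ml, 2 to 5 for the combination against IFNγ, 4 to 6 against TNF, 2 to 7 for IFNγ against IFNα1, 2 to 4 for TNF against IFNγ, 8 to 8 for any stimulus, 5 to 9 for any duration and 0 to 7 slopes. It gave 0 to 0 for the other comparisons with 0 calls. Calls over all genes are not given here for leaving out a duration or for the early against late term. Those member counts therefore cannot be set against the background. The slope of Ptpn2 with IFNγ at 1 ng/ml reversed to -0.063 without the 2 h libraries and lay between -0.063 and 0.30 when 1 duration was left out. The cause of these moves was not tested.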
